A study of Homo sapiens with 18 samples.

Results

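The comparison described here sets tumours of mice dosed with DS55980254 at 10 mg/kg against tumours of mice given vehicle. Its libraries were taken by their titles and are 12 of the 18 libraries of the series, 6 in each group. All 18 tumours were xenografts of HCT116, an established human colon cancer line, grown in mice, and all carried the genotype PTDSS2-KO, the vehicle group included. Dosing was oral in 0.5% methylcellulose, and tumours were taken at 24 hours. The other 6 libraries received DS55980254 at 30 mg/kg and enter here only to share the estimate of spread and for 1 direct test of the doses. The labels give no age, sex or strain of the mice, and do not state whether the knockout line is 1 clone and whether any mouse gave more than 1 tumour. Adjusted p-values therefore set group differences against the spread among these samples only.

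Phosphatidylserine is made by PTDSS1 and PTDSS2; it is a phospholipid of the inner leaflet of the plasma membrane, and both enzymes form it by exchanging serine into other phospholipids. Cells lacking either enzyme rely on the other. The series title concerns PTDSS1 inhibition in cancer cells that lack PTDSS2. Cholesterol synthesis is governed by SREBP2, the product of SREBF2, which stays in the endoplasmic reticulum with SCAP and INSIG1 while sterol is plentiful and is cut free to activate transcription when sterol there runs low. SREBP1, its relative, acts mainly on fatty acid synthesis. ATF4 is a transcription factor that is translated during amino acid and endoplasmic reticulum stress and activates genes of amino acid uptake and tRNA charging.

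At 10 mg/kg, 66 of 14074 genes tested differed from vehicle at a Benjamini-Hochberg adjusted p under 0.05 (edgeR quasi-likelihood test), which is 0.469% of genes. Of these 59 were higher (0.419%) and 7 lower (0.0497%). Of 42 genes tested from 4 lists of sterol sensing, cholesterol synthesis, uptake and efflux, 17 rose and 0 fell. The risers included 7 of 10 mevalonate genes and 5 of 12 genes of sterol ring synthesis. Smaller groups of higher genes belonged to fatty acid synthesis, the ATF4 response, NF-kB signalling and the immediate early genes, and the lower genes included AMOTL2, DKK1 and 3 genes of the cell cycle lists. Without 10 mg/kg replicate 2, 121 of 14145 genes differed (0.855%), 105 higher (0.742%) and 16 lower (0.113%). All 66 genes were called in both fits, and 55 were called only without that library. With all libraries 1337 genes had an unadjusted p under 0.05, and without that library 1394.

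10 mg/kg replicate 2 stood apart from the other libraries. Its counts summed to 433989, against 3435435 to 4900623 in the 11 other libraries compared and 3755056 to 8538793 at 30 mg/kg. A single read was worth 2.14 CPM (counts scaled to library size by TMM) in it, against 0.203 to 0.289 CPM in the 11 others. The mean correlation of its log2 values with those of the other libraries was 0.726, where the 11 others reached 0.944 to 0.954. Summed over the 10 fibroblast markers it held 349 CPM, against 63.7 to 110.5 CPM in vehicle and 75.2 to 107 CPM in the 5 others dosed. Its sums were also highest for endothelium (171 CPM, against at most 34.4 in the 11 others), leukocytes (173, at most 43.4), muscle (94.1, at most 25.8), fat (42.8, at most 8.39), erythroid cells (29.9, at most 6.95) and keratinocytes (212, at most 63.4). S100A8 and FABP4 were at 0 in all 12 libraries, and 0 genes of these marker lists passed in either fit by edgeR, or by DESeq2 with all libraries. Of the 14 such host-type markers high enough to be tested, 1 leukocyte and 2 keratinocyte markers had an unadjusted p under 0.05 with all libraries. The 383 olfactory receptor genes too low to be tested summed to 1636 CPM in it and to 454 CPM in 10 mg/kg replicate 4, against 20 to 104 CPM in the 10 others. The 12 epithelial markers summed to 4462 CPM in replicate 2 and to 5502 to 7759 CPM in the 11 others. Of these markers EPCAM, a surface protein of epithelium, ran from 311 to 445 CPM over all 12 libraries. The lowest levels at 10 mg/kg were below the lowest in vehicle for KRT8 (1288 against 2562 CPM), KRT18 (563 against 914) and CDH1 (103 against 158). For KRT19 they were not (1256 against 1218 CPM). The part of this library's make-up in the results was not tested. Each called gene that is named is given with and without it, and genes named as not having passed with all libraries passed without it only where that is said.

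PTDSS1 (Entrez gene 9791) had a lowest, median and highest level of 69.8, 78.1 and 81.8 CPM in vehicle and 57.8, 64.6 and 73.1 CPM at 10 mg/kg. The groups overlapped slightly, with 4 of the 5 dosed libraries other than replicate 2 below every vehicle library. Over all genes tested PTDSS1 did not pass (log2 fold change -0.23, SE 0.09, adjusted p = 0.379 by edgeR), nor did it without replicate 2 (-0.22, adjusted p = 0.351). Tested alone on log2(CPM + 0.5), a two-sided exact permutation test gave a difference of -0.25 and p = 0.00649. PTDSS2 (Entrez gene 81490), the gene given as knocked out, still had counts of 4.97, 8.63 and 12 CPM in vehicle and 7.11, 8.72 and 13.9 CPM at 10 mg/kg. Its groups overlapped throughout, with a difference of 0.12 and p = 0.6 by the same exact permutation test. Counts per gene do not show whether these transcripts carry the edit, so they check neither the knockout nor the labels.

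Among the genes that sense sterol, INSIG1 and SREBF2 rose and the other 5 tested did not pass. INSIG1 (Entrez gene 3638), which holds SCAP and the SREBPs in the endoplasmic reticulum and is itself an SREBP target, ran at 30, 39.4 and 54.8 CPM in vehicle and 100.5, 112 and 120.4 CPM at 10 mg/kg. All 6 dosed libraries lay above all 6 vehicle libraries, replicate 2 included at 109 CPM. The rise was 2.8-fold with all libraries (SE 0.12 on the log2 scale, adjusted p = 1.4e-07 by edgeR) and 2.81-fold without replicate 2 (adjusted p = 1e-08). SREBF2 (Entrez gene 6721) ran at 247, 259 and 277 CPM in vehicle and 255, 390.0 and 440.1 CPM at 10 mg/kg. Replicate 2 gave the 255 CPM, inside the vehicle range, and the 5 other dosed libraries were all above it at 331 CPM or more. SREBF2 rose 1.43-fold (adjusted p = 0.0301) and 1.51-fold without replicate 2 (adjusted p = 4.7e-05). With replicate 2 kept, its call was lost when any of 8 of the 12 libraries was left out (adjusted p up to 0.095). SREBF1, the gene of SREBP1, stood at 1.17-fold (adjusted p = 0.492) and SCAP, the sterol-sensing escort, at 0.88-fold (adjusted p = 0.492).

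Promoter stretches of 4 of the cholesterol genes show letters that NF-Y, a partner of SREBP2, is known to bind. Only that of SREBF2 also shows TCACNCCAC, the 1 form of an SREBP2 site that was searched for. Other forms were not searched, so the remaining stretches may hold some. They are given on the gene's strand from RefSeq on GRCh38.p14, whereas the submitters' notes name hg19. Capitals mark TCACNCCAC, a form of the sterol regulatory element, and CCAAT or its reverse complement ATTGG.
SREBF2, chr22:41832955-41833014, plus strand: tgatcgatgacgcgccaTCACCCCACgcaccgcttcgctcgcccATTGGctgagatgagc
HMGCS1, chr5:43313498-43313577, minus strand: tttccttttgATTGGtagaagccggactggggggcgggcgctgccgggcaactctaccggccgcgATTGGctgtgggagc
MVD, chr16:88663161-88663260, minus strand: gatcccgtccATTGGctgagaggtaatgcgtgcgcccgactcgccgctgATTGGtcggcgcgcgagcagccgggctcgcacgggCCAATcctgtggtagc
INSIG1, chr7:155297678-155297737, plus strand: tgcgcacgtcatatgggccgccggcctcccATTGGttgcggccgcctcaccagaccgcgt
The sterol regulatory element begins 133 bases before the SREBF2 start and the CCAAT letters 106 bases before it. HMGCS1 holds CCAAT letters 155 and 100 bases before its start, MVD 159, 120 and 85 bases before, and INSIG1 170 bases before. Searched on both strands of windows of 300 bases (250 before and 50 after each start), TCACNCCAC occurs in 1.13% of 35116 windows and in 1 of 47 windows of the 4 cholesterol lists, that of SREBF2. CCAAT occurs in 34.6% of all windows and in 16 of 24 windows of the mevalonate and sterol ring lists. A match is a description of the letters and not a shown binding site.

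In the mevalonate pathway, which builds farnesyl units and then squalene from acetyl-CoA, 7 of 10 genes rose and 0 fell, and 8 rose without replicate 2. The median log2 fold change was 0.75, and 0.88 without replicate 2, where the median of all genes tested was -0.01 in both fits. HMGCS1 (Entrez gene 3157), which makes HMG-CoA, ran at 60.1, 69.7 and 74.6 CPM in vehicle and 72.7, 154 and 215 CPM at 10 mg/kg. Replicate 2 was the dosed library at 72.7 CPM and the other 5 were at 146 CPM or more. HMGCS1 rose 2.34-fold (SE 0.15 on the log2 scale, adjusted p = 6.3e-05 by edgeR) and 2.51-fold without replicate 2 (SE 0.10, adjusted p = 1e-08). ACAT2, which joins the first acetyl-CoA units, had vehicle values of 20.9, 22.2 and 27.6 CPM. It read 10.7 CPM in replicate 2 and 42 to 55.6 CPM in the other 5 dosed libraries, a 2.03-fold rise (adjusted p = 0.00149) that became 2.16-fold without replicate 2 (adjusted p = 3.1e-07). MVD, which decarboxylates mevalonate diphosphate, ran at 37.4, 42 and 54.3 CPM in vehicle and 83, 87.7 and 118 CPM at 10 mg/kg. Its groups did not overlap, replicate 2 was the highest library, and the rise was 2.1-fold (adjusted p = 1.2e-05) or 2.04-fold without replicate 2 (adjusted p = 6.4e-07).

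FDFT1, which makes squalene, was also low in replicate 2, with 151 to 189.8 CPM in vehicle, 116 CPM in replicate 2 and 288 to 334 CPM in the other 5. It rose 1.72-fold (adjusted p = 0.013) and 1.88-fold without replicate 2 (adjusted p = 4.3e-08), and without vehicle replicate 5 the call was lost at 0.0511. FDPS, the farnesyl diphosphate synthase, rose 1.63-fold with groups that did not overlap (82.7 to 113 against 139 to 191 CPM, adjusted p = 0.00083), and 1.67-fold without replicate 2 (adjusted p = 4.4e-05). IDI1, an isomerase, rose 1.87-fold (adjusted p = 0.0229) and 1.97-fold without replicate 2 (adjusted p = 0.00144). With that library kept, its call ended without any of 5 libraries (adjusted p up to 0.0814). MVK, the mevalonate kinase, passed only without replicate 2, at 1.63-fold (adjusted p = 0.034, against 0.113 with all libraries). PMVK, the next kinase, stood at 1.11-fold (adjusted p = 0.869).

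Of the 12 genes that turn squalene into cholesterol, 5 rose and 0 fell, and 8 rose without replicate 2. The median log2 fold change was 0.63, and 0.71 without it. SQLE, the squalene epoxidase, ran at 61.4, 66.8 and 84.1 CPM in vehicle and 68.4, 107 and 131 CPM at 10 mg/kg, with replicate 2 lowest and the other 5 at 102 CPM or more. It rose 1.58-fold (adjusted p = 0.00483 by edgeR) and 1.65-fold without replicate 2 (adjusted p = 4.4e-05). LSS, which closes the sterol rings, ran at 62.3 to 106 CPM in vehicle and 132 to 192 CPM at 10 mg/kg with no overlap, and rose 1.94-fold (adjusted p = 0.00035) or 1.9-fold without replicate 2 (adjusted p = 8.7e-05). CYP51A1, a lanosterol demethylase, rose 1.68-fold (adjusted p = 0.0301) and 1.65-fold without replicate 2 (adjusted p = 0.034), and its call ended without any of 7 libraries (adjusted p up to 0.088). MSMO1, a sterol oxidase, ran at 22.3, 25.7 and 34.3 CPM in vehicle and 27.8, 58.7 and 73.1 CPM at 10 mg/kg, and rose 2.16-fold (adjusted p = 0.00111) or 2.26-fold without replicate 2 (adjusted p = 2.9e-05). DHCR7, which reduces the last double bond on one route, ran at 45 to 55 CPM in vehicle, 27.8 CPM in replicate 2 and 92.9 to 106 CPM in the other 5. It rose 1.85-fold (adjusted p = 0.00346) and 1.99-fold without replicate 2 (adjusted p = 8.8e-08).

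EBP and NSDHL passed only without replicate 2 and were both low in that library. EBP, a sterol isomerase, read 17.1 CPM in replicate 2 and 44.3 to 57.9 CPM in the other 5, against 27.3 to 36.1 CPM in vehicle. Without replicate 2 it rose 1.58-fold (adjusted p = 0.00881 by edgeR, against 0.162 with all libraries). NSDHL, a sterol dehydrogenase, was at 4.28 CPM, or 2 reads' worth, in replicate 2 and at 21.9 to 28.7 CPM in the other 5, and rose 1.59-fold without it (adjusted p = 0.0181, against 0.237). TM7SF2, HSD17B7 and SC5D stood at 1.4-fold, 1.56-fold and 1.31-fold without passing (adjusted p = 0.0681, 0.236 and 0.405). In the list of cholesterol uptake and efflux 3 of 13 genes rose in each fit, with a median of 0.33, or 0.39 without replicate 2. STARD4, which carries cholesterol between membranes, was among them, at 21.7 to 24 CPM in vehicle and 25.7 to 41.6 CPM at 10 mg/kg with no overlap. It rose 1.58-fold (adjusted p = 0.0401) and 1.61-fold without replicate 2 (adjusted p = 0.0112), and the call ended without any of 10 libraries (adjusted p up to 0.0977). NPC1, which exports cholesterol from lysosomes, and SCARB1, a lipoprotein receptor, stood at 1.32-fold and 1.26-fold (adjusted p = 0.105 and 0.393).

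**Figure D1:**
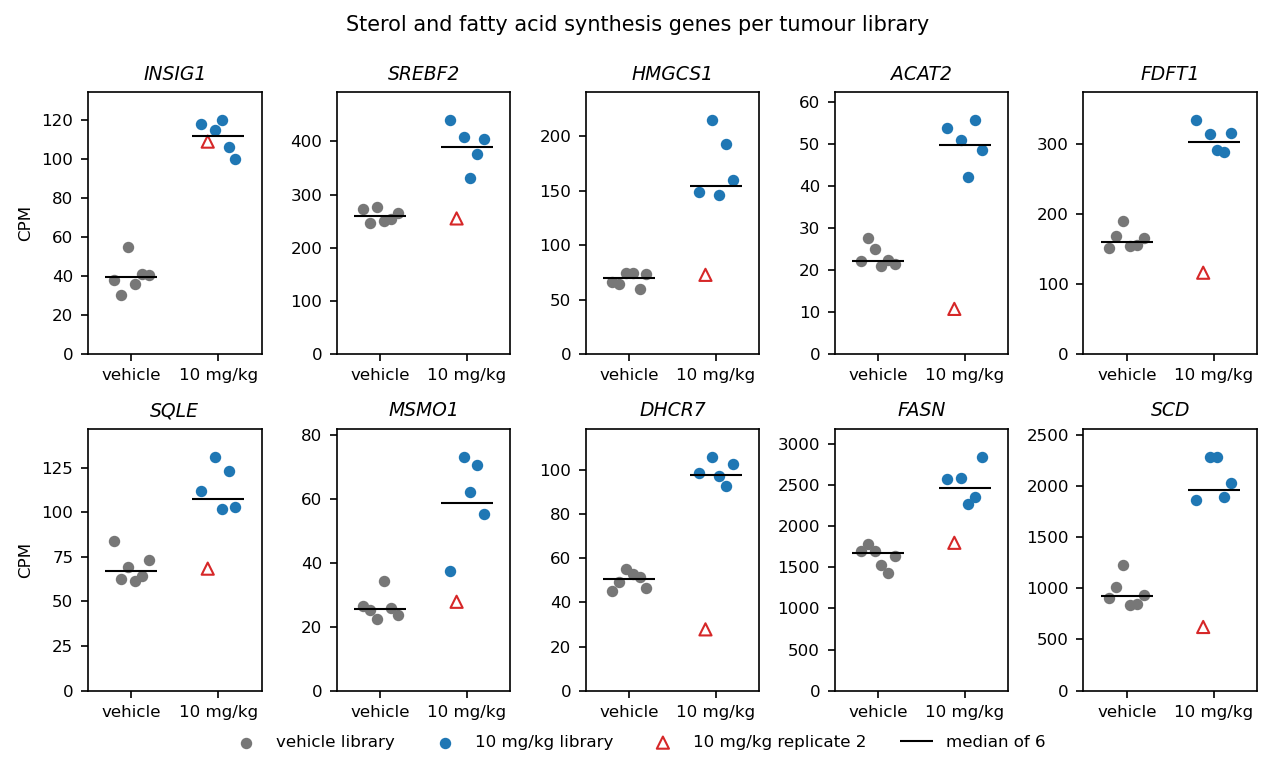
CPM (vertical axes, from 0) of 8 sterol genes and the fatty acid genes FASN and SCD in the 6 vehicle libraries (grey points) and the 6 libraries at 10 mg/kg (blue points, with replicate 2 as a red open triangle); the black bars are medians of 6. The 5 blue points lie above all grey points in each panel, and the triangle lies among or below the grey points except for INSIG1, where it reads 109 CPM, and FASN, where it reads 1797 CPM against at most 1782 CPM.

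Scores give the same arrangement across libraries; a score is the mean log2 CPM of a list's tested members. The mevalonate score was 5.30 to 5.58 in vehicle, 5.54 in replicate 2 and 6.01 to 6.26 in the other 5 dosed libraries. The sterol ring score was 5.32 to 5.51 in vehicle, 5.18 in replicate 2 and 5.99 to 6.17 in the other 5. Across all 4 cholesterol lists 32 of 42 genes had a positive log2 fold change with a median of 0.58, and without replicate 2 this was 33 of 42 with a median of 0.66 and 21 called higher. Over all genes 48.8% of log2 fold changes were positive.

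Of 20 genes of fatty acid synthesis 3 rose and 0 fell, and 6 rose without replicate 2. The median log2 fold change was 0.24, and 0.32 without it. FASN (Entrez gene 2194), the fatty acid synthase, ran at 1428, 1667 and 1782 CPM in vehicle and 1797, 2463 and 2839.8 CPM at 10 mg/kg, with no overlap. It rose 1.48-fold (adjusted p = 0.0172 by edgeR) and 1.55-fold without replicate 2 (adjusted p = 2.8e-05), and without vehicle replicate 5 the call was lost at 0.0746. SCD (Entrez gene 6319), which makes monounsaturated fatty acids, ran at 837, 921 and 1229.9 CPM in vehicle, 622 CPM in replicate 2 and 1866 to 2283 CPM in the other 5. It rose 1.91-fold (adjusted p = 0.0301) and 2.15-fold without replicate 2 (adjusted p = 7.7e-08), and with replicate 2 kept the call ended without any of 9 libraries (adjusted p up to 0.0969). ACSS2, which makes acetyl-CoA from acetate, was not low in that library (85.6 CPM). Its levels were 31.1 to 48.8 CPM in vehicle and 57.1 to 90.5 CPM at 10 mg/kg, a 1.87-fold rise (adjusted p = 0.00111), or 1.83-fold without replicate 2 (adjusted p = 0.00041).

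Another 3 genes of this list passed only without replicate 2. ACLY, which makes acetyl-CoA from citrate, ran at 281 to 293 CPM in vehicle, 126 CPM in replicate 2 and 344 to 423 CPM in the other 5, a 1.38-fold rise without it (adjusted p = 0.0005 by edgeR, against 0.578 with all libraries). ACACA, the acetyl-CoA carboxylase that commits carbon to fatty acids, read 169 CPM in replicate 2, 431 to 543 CPM in the other 5 and 376 to 421 CPM in vehicle, and rose 1.25-fold without it (adjusted p = 0.0379, against 0.774). ACSL3, a long-chain acyl-CoA synthetase, rose 1.28-fold without it (adjusted p = 0.023, against 0.4). The score of the list was 5.61 in replicate 2, 5.92 to 6.07 in vehicle and 6.18 to 6.35 in the other 5 dosed libraries.

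Genes of phospholipid synthesis moved little as a list: 1 of 30 rose, 2 rose without replicate 2, 0 fell in either fit, and the median log2 fold change was 0.06 or 0.04. The riser was LPIN1 (Entrez gene 23175), a phosphatidate phosphatase that makes diacylglycerol, at 26.8, 29 and 32.3 CPM in vehicle and 45.4, 55.9 and 66.5 CPM at 10 mg/kg. Its groups did not overlap, and it rose 1.93-fold (SE 0.13 on the log2 scale, adjusted p = 0.00037 by edgeR), or 1.96-fold without replicate 2 (adjusted p = 4.4e-05). PCYT2, which makes CDP-ethanolamine for phosphatidylethanolamine, lay at 60.4 to 69.4 CPM in vehicle and 75.3 to 93.4 CPM at 10 mg/kg, and rose 1.29-fold only without replicate 2 (adjusted p = 0.034, against 0.0772). Of 14 lipases and lipid droplet genes 1 rose in each fit, LIPG, the endothelial lipase, which cleaves phospholipids of lipoproteins. It ran at 5.42, 7.43 and 9.76 CPM in vehicle and 16.6, 21.4 and 29.9 CPM at 10 mg/kg, a 2.78-fold rise (adjusted p = 0.00032), or 2.7-fold without replicate 2 (adjusted p = 5.9e-05). Of 25 genes of lysosome and autophagy NEU1, a lysosomal sialidase, rose 1.58-fold (adjusted p = 0.016) and 1.56-fold without 10 mg/kg replicate 2 (adjusted p = 0.0105), the first call being lost without vehicle replicate 2, 4 or 5 (adjusted p up to 0.0543). SQSTM1, the autophagy receptor p62, joined it without 10 mg/kg replicate 2 at 1.35-fold (adjusted p = 0.013, against 0.089).

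**Figure D2:**
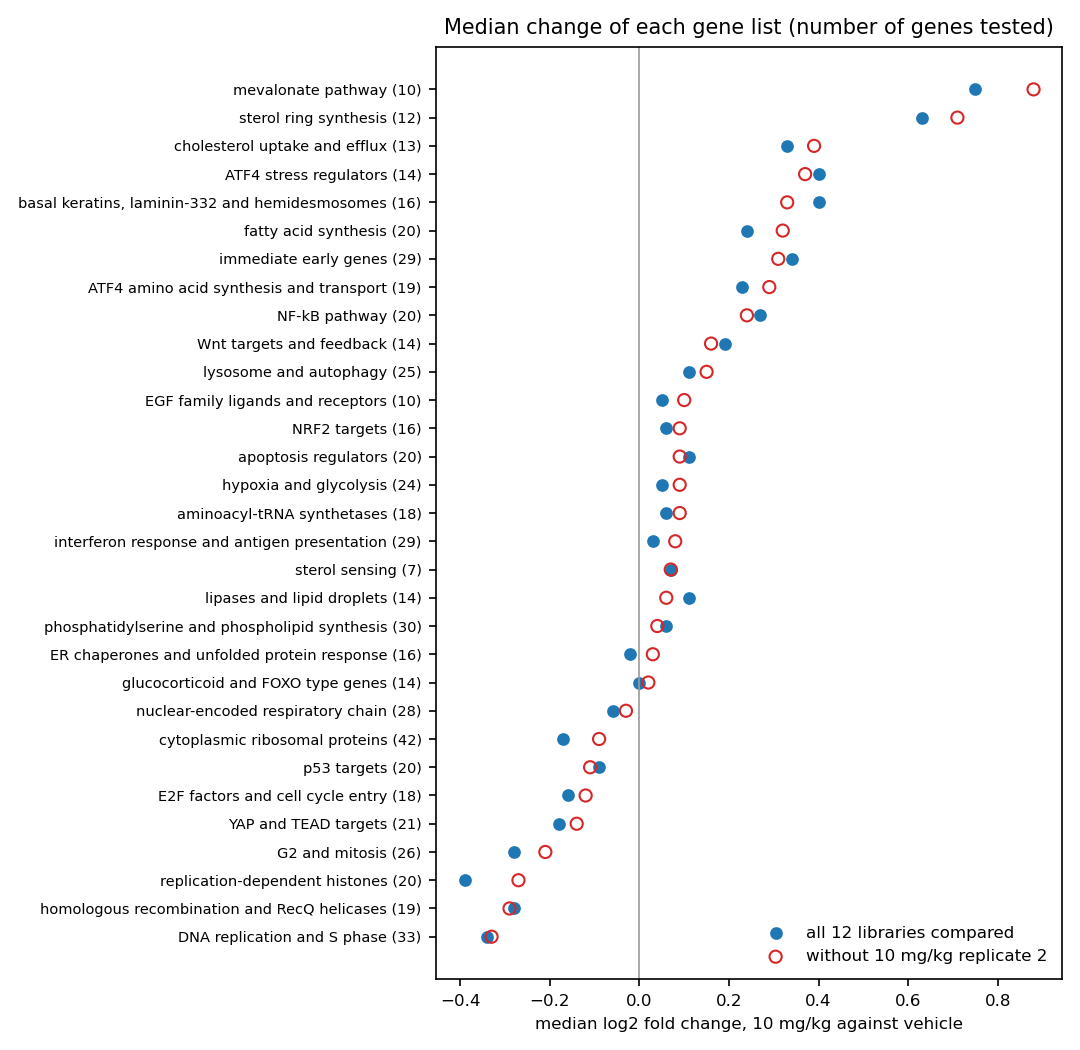
Median log2 fold change at 10 mg/kg against vehicle (horizontal axis) of each gene list except the cell type markers (rows, with the number of genes tested with all libraries), from all libraries (filled) and without 10 mg/kg replicate 2 (open). Of the lists drawn, the mevalonate and sterol ring lists lie farthest to the right, at 0.75 and 0.63 with all libraries. Replication-dependent histones lie farthest to the left with all libraries, at -0.39. Without that library DNA replication and S phase lies farthest to the left at -0.33, with histones at -0.27.

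Among 14 stress regulators linked to ATF4 3 rose and 0 fell in each fit, and the median log2 fold change was 0.40, or 0.37 without replicate 2. CHAC1 (Entrez gene 79094), which degrades glutathione, was scarce, at 1.23, 2.35 and 2.74 CPM in vehicle and 4.28, 5.7 and 10.1 CPM at 10 mg/kg. Its groups did not overlap, the 4.28 CPM in replicate 2 were worth 2 reads, and the rise was 2.98-fold (SE 0.31 on the log2 scale, adjusted p = 0.0149 by edgeR) or 3.06-fold without replicate 2 (adjusted p = 0.00549). Without vehicle replicate 5 the call was lost at 0.0505. TRIB3, a pseudokinase that restrains this response, ran at 19.3 to 29.8 CPM in vehicle, 64.2 CPM in replicate 2 and 32.5 to 38.3 CPM in the other 5, and rose 1.65-fold (adjusted p = 0.0153) or 1.56-fold without replicate 2 (adjusted p = 0.00601). CEBPG, a partner of ATF4, ran at 42.7 to 55.3 CPM in vehicle and 64 to 92 CPM at 10 mg/kg, and rose 1.4-fold (adjusted p = 0.0194) or 1.36-fold without replicate 2 (adjusted p = 0.0107). With replicate 2 kept, its call was lost without vehicle replicate 1 or 5 (adjusted p up to 0.0738). ATF4 itself stood at 1.31-fold (adjusted p = 0.347), with 309 to 458 CPM in vehicle and 402 to 584 CPM at 10 mg/kg.

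Of 19 genes of amino acid synthesis and transport and 18 aminoacyl-tRNA synthetases 0 passed by edgeR with all libraries, and 2 and 3 rose without replicate 2. At an unadjusted p under 0.05 by edgeR there were 7 genes in each list with all libraries, 7 and 6 of them higher. With all libraries DESeq2 called 2 and 3 and voom with sample weights 3 and 4. The medians were 0.23 and 0.06 on the log2 scale, and 0.29 and 0.09 without it. SLC7A11, the cystine importer, was not low in replicate 2 (47.1 CPM, against 29.7 to 56.9 CPM in the other 5) and rose 1.66-fold without it (adjusted p = 0.034 by edgeR, against 0.0551 with all libraries). SLC1A5, a glutamine carrier, ran at 138 to 178 CPM in vehicle, 175 CPM in replicate 2 and 184 to 251 CPM in the other 5, and rose 1.33-fold without it (adjusted p = 0.023, against 0.136). AARS1, GARS1 and MARS1, which charge the tRNAs for alanine, glycine and methionine, each rose 1.39-fold without replicate 2 (adjusted p = 0.00911, 0.00702 and 0.00687). With all libraries they stood at 1.34-fold, 1.32-fold and 1.35-fold (adjusted p = 0.118, 0.199 and 0.0671). GARS1 read 111 CPM in replicate 2, 169.6 to 195 CPM in the other 5 and 119.5 to 139 CPM in vehicle. ASNS, which makes asparagine, did not pass in either fit (1.41-fold and 1.46-fold, adjusted p = 0.269 and 0.0812). The list score of the synthetases was 6.33 in replicate 2, against 6.86 to 6.99 in vehicle and 6.97 to 7.23 in the other 5.

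The letters TGATGNAA, the C/EBP-ATF response element that ATF4 binds with a C/EBP partner, stand near the starts of 6 genes of these lists called in at least 1 of the fits. They are shown in capitals on the gene's strand, as TGATGNAA or its reverse complement, in stretches of 30 bases from RefSeq on GRCh38.p14.
CHAC1, chr15:40953251-40953280, plus strand: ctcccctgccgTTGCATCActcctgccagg
CEBPG, chr19:33374060-33374089, plus strand: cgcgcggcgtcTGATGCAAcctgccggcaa
AARS1, chr16:70289675-70289704, minus strand: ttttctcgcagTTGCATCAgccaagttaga
GARS1, chr7:30594834-30594863, plus strand: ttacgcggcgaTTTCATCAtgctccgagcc
MARS1, chr12:57488053-57488082, plus strand: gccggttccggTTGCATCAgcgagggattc
SLC1A5, chr19:46784893-46784922, minus strand: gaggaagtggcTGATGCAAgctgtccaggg
The letters begin 209 bases before the start for CHAC1, 42 for CEBPG, 187 for AARS1, 33 for GARS1, 4 for MARS1 and 97 for SLC1A5, each counted from 1 of the gene's RefSeq starts. On both strands they occur in 3.62% of the 35116 windows of 300 bases, in 4 of 26 windows of the stress regulators, 5 of 24 of amino acid synthesis and transport and 7 of 19 of the synthetases.

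Of 20 NF-kB pathway genes 2 rose and 0 fell with all libraries and likewise among 21 without replicate 2, with medians of 0.27 and 0.24. RELB (Entrez gene 5971), a subunit of the non-canonical pathway, ran at 11.6, 15.2 and 22.1 CPM in vehicle and 23.6, 28.7 and 51.3 CPM at 10 mg/kg, with no overlap. It rose 1.88-fold (adjusted p = 0.0149 by edgeR) and 1.78-fold without replicate 2 (adjusted p = 0.00714), which was the highest library, and without vehicle replicate 5 the call was lost at 0.0505. NFKBIA, which encodes the inhibitor that holds NF-kB in the cytoplasm and is itself induced by NF-kB, ran at 30.7 to 44.7 CPM in vehicle, 85.6 CPM in replicate 2 and 47.4 to 68 CPM in the other 5. It rose 1.6-fold (adjusted p = 0.0304) and 1.53-fold without replicate 2 (adjusted p = 0.023), and the call ended without any of 7 libraries (adjusted p up to 0.118). NFKB2, the partner of RELB, lay at 107 to 133 CPM in vehicle and 138 to 160.4 CPM at 10 mg/kg without passing (1.26-fold, adjusted p = 0.162). The letters GGNNTTTCC, the core of a common form of the kappaB site, occur on either strand in 6.26% of all windows and in 21 of 36 windows of this list. The match nearest the start of NFKBIA begins 81 bases before it and is shown in capitals as its reverse complement.
NFKBIA, chr14:35404811-35404840, minus strand: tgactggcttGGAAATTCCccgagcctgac

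Immediate early genes are transcribed within minutes of a growth or stress signal and encode mostly transcription factors. Of 29 tested 5 rose and 0 fell, and without replicate 2 7 rose and 1 fell, with medians of 0.34 and 0.31. JUN (Entrez gene 3725), part of the AP-1 factor, ran at 124, 135 and 174 CPM in vehicle, 400.0 CPM in replicate 2 and 199 to 264 CPM in the other 5. It rose 1.79-fold (adjusted p = 0.00149 by edgeR) and 1.62-fold without replicate 2 (adjusted p = 3.2e-05). Its relative JUND ran at 184 to 219.6 CPM in vehicle and 295 to 417 CPM at 10 mg/kg, with no overlap, and rose 1.67-fold (adjusted p = 0.00028) or 1.61-fold without replicate 2 (adjusted p = 6.9e-06). DUSP4, a MAP kinase phosphatase, ran at 271, 287 and 311 CPM in vehicle and 370.0, 403 and 428 CPM at 10 mg/kg, again with no overlap, and rose 1.4-fold (adjusted p = 0.00978) or 1.42-fold without replicate 2 (adjusted p = 0.00017). KLF6 rose 1.43-fold (adjusted p = 0.0162) and 1.45-fold without replicate 2 (adjusted p = 0.0023), the first call being lost without vehicle replicate 1, 4 or 5 (adjusted p up to 0.0622). EGR3 read 49.2 CPM in replicate 2 and 8.79 to 14.8 CPM in the other 5, against 3.86 to 6.33 CPM in vehicle. Its fold fell from 2.78 with all libraries (adjusted p = 0.0381) to 2.26 without replicate 2 (adjusted p = 0.00958), and with replicate 2 kept the call ended without any of 8 libraries (adjusted p up to 0.116). KLF2 and NR4A1 rose only without replicate 2, at 1.32-fold and 1.62-fold (adjusted p = 0.034 and 0.0249, against 0.313 and 0.0864).

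MYC, a growth-promoting factor and Wnt target, was the early gene that fell without replicate 2. It ran at 221, 295 and 306 CPM in vehicle and 176, 199.5 and 225 CPM at 10 mg/kg, so that the groups overlapped at 1 vehicle library's level. Its level was 0.735 of vehicle without replicate 2 (adjusted p = 0.0431 by edgeR) and 0.724 with all libraries (adjusted p = 0.0856). AREG, the EGF family ligand amphiregulin, rose 1.35-fold without replicate 2 (adjusted p = 0.00987, against 0.237), with 145 CPM in replicate 2, 203 to 246 CPM in the other 5 and 146 to 193 CPM in vehicle. It was the 1 called gene of 10 in its list.

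Of 14 genes that respond to glucocorticoid or FOXO factors 2 rose in each fit, with medians of -0.00 and 0.02. TSC22D3 (Entrez gene 1831), the glucocorticoid-induced leucine zipper, ran at 18.3, 22.6 and 26.8 CPM in vehicle and 25.7, 52.6 and 58.2 CPM at 10 mg/kg, with replicate 2 lowest and the other 5 at 45.6 CPM or more. It rose 2.3-fold (adjusted p = 6.3e-05 by edgeR) and 2.4-fold without replicate 2 (adjusted p = 3.5e-07). KLF9, a hormone-responsive repressor, rose 1.72-fold (adjusted p = 0.0381) and 1.73-fold without replicate 2 (adjusted p = 0.023), with 5.64 to 8.58 CPM in vehicle and 9.98 to 13.9 CPM at 10 mg/kg. Its first call ended without any of 10 libraries (adjusted p up to 0.108). SGK1, a kinase of the same hormone response, stood at 2.09-fold without passing (adjusted p = 0.132). PMAIP1, the BH3-only protein NOXA, rose 1.43-fold without replicate 2 (adjusted p = 0.023, against 0.0832) with groups that did not overlap, 81.1 to 99.7 against 105 to 145 CPM, and was the 1 called gene of 20 apoptosis regulators.

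**Figure D3:**
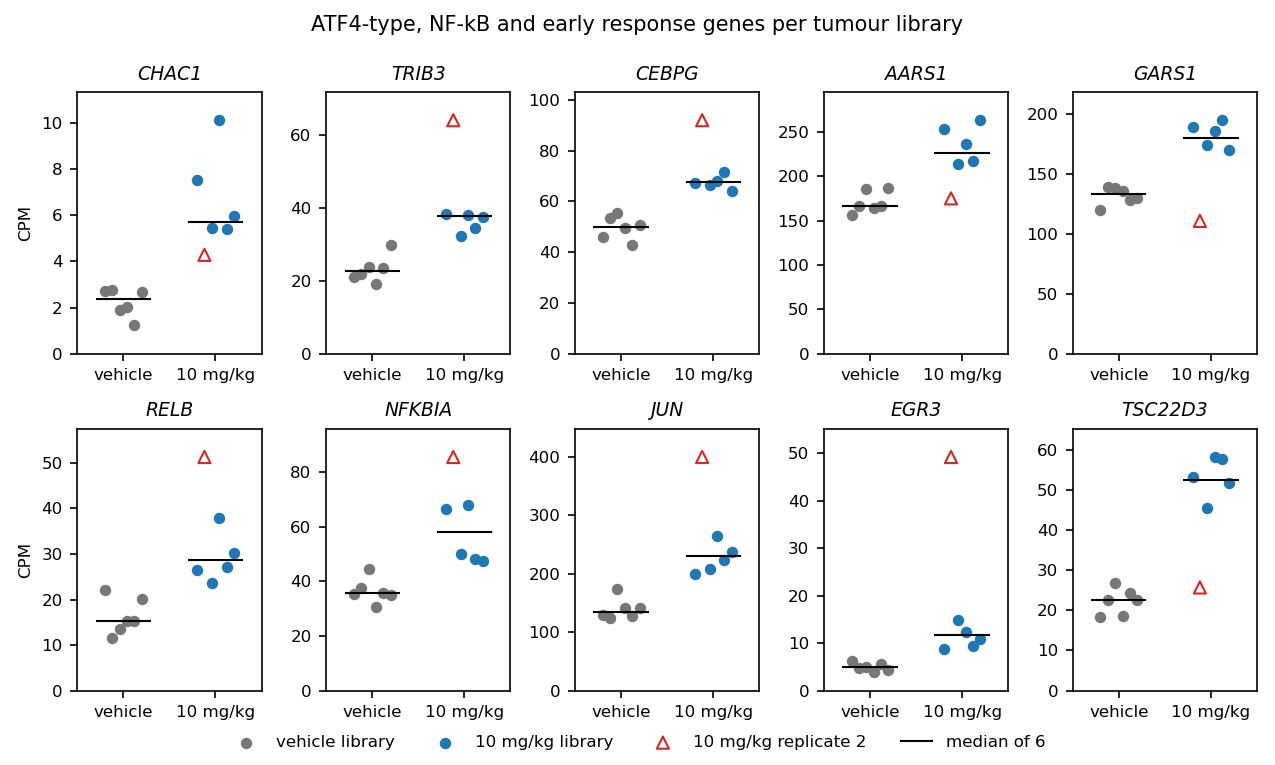
CPM (vertical axes, from 0) of 5 genes of the ATF4 and synthetase lists, 2 of NF-kB, 2 early genes and TSC22D3 in the 6 vehicle libraries (grey) and the 6 libraries at 10 mg/kg (blue, with replicate 2 as a red open triangle); bars are medians of 6. The triangle is the highest point for TRIB3, CEBPG, RELB, NFKBIA, JUN and EGR3 and the lowest dosed point for CHAC1, AARS1, GARS1 and TSC22D3.

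Of 21 targets of YAP and TEAD, the growth regulators of the Hippo pathway, 1 fell and 0 rose, and without replicate 2 2 fell. The median log2 fold change was -0.18, and -0.14 without it. AMOTL2 (Entrez gene 51421), an angiomotin that binds YAP and is itself a target of it, ran at 78, 92.8 and 106 CPM in vehicle and 36.2, 54.2 and 57.8 CPM at 10 mg/kg. The groups did not overlap, and AMOTL2 fell to 0.531 of the vehicle level (log2 fold change -0.91, SE 0.12, adjusted p = 0.00018 by edgeR), or 0.524 without replicate 2 (adjusted p = 1.6e-05). ARHGEF17, a guanine nucleotide exchange factor, fell to 0.725 without replicate 2 (adjusted p = 0.0486, against 0.157), with 49.1 to 67.2 CPM in those 5 libraries, 72.7 CPM in replicate 2 and 69.6 to 85.6 CPM in vehicle. AXL, a receptor kinase, stood at 0.78-fold (adjusted p = 0.215). The letters GGAATG, a TEAD site, occur on either strand in 14% of all windows and in 10 of 20 windows of this list. That of AMOTL2 begins 69 bases before 1 of its starts and is shown in capitals as its reverse complement.
AMOTL2, chr3:134374499-134374528, minus strand: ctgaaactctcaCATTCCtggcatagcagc

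Of 14 Wnt targets and feedback genes 1 fell and 0 rose in each fit. It was DKK1 (Entrez gene 22943), a secreted Wnt antagonist, with 13.8, 21.9 and 35.2 CPM in vehicle and 5.12, 9.78 and 11.6 CPM at 10 mg/kg. The groups did not overlap, and DKK1 fell to 0.384 of the vehicle level in both fits (SE 0.25 on the log2 scale, adjusted p = 0.00817 by edgeR, 0.00552 without replicate 2). The list's median was 0.19, or 0.16 without replicate 2, and RNF43, a feedback inhibitor of the same pathway, stood at 1.2-fold (adjusted p = 0.492).

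The 5 lists of the cell cycle held 116 genes tested, of which 3 fell and 0 rose in each fit. Negative log2 fold changes were found for 108 of the 116, with a median of -0.32, and for 111 without replicate 2, with a median of -0.26. BLM (Entrez gene 641), a RecQ helicase of recombination repair, ran at 27.5, 34.2 and 36.6 CPM in vehicle and 15, 21.4 and 26.2 CPM at 10 mg/kg. It fell to 0.655 (adjusted p = 0.0308 by edgeR), or 0.669 without replicate 2 (adjusted p = 0.0246), and the groups did not overlap. E2F7, a repressor of E2F targets, ran at 51.3 to 63.9 CPM in vehicle and 33.3 to 44.9 CPM at 10 mg/kg and fell to 0.71 (adjusted p = 0.0363), or 0.705 without replicate 2 (adjusted p = 0.0158). H2AC13, a replication-dependent H2A gene, fell to 0.689 (adjusted p = 0.0381), or 0.712 without replicate 2 (adjusted p = 0.023). Its levels were 64.4 to 87.2 CPM in vehicle and 34.2 to 64.4 CPM at 10 mg/kg, and it is uncertain because near-identical histone copies can share reads. The calls of BLM, E2F7 and H2AC13 each ended without any of 8 libraries (adjusted p up to 0.118, 0.132 and 0.135).

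No other member of these lists passed by edgeR, although 21 of 33 genes of DNA replication and S phase and 10 of 26 of G2 and mitosis had an unadjusted p under 0.05, all of them lower. Without replicate 2 there were 24 and 10 such genes. From all libraries, DESeq2 called 0 genes of either list. Voom with sample weights, also from all libraries, called 4 of DNA replication and S phase and 0 of G2 and mitosis. CDT1, which licenses origins, stood at 0.777-fold with groups that did not overlap (91 to 108 against 59.9 to 89.9 CPM, adjusted p = 0.199 by edgeR). MCM4, a helicase subunit, TYMS, the thymidylate synthase, and CDK1, the mitotic kinase, stood at 0.725-fold, 0.74-fold and 0.699-fold (adjusted p = 0.203, 0.221 and 0.272). RBL1, a relative of RB that binds E2F, stood at 0.72-fold (adjusted p = 0.105). Replicate 2 was low for several of these lists. Its histone score was 4.48, against 6.58 to 6.79 in vehicle and 6.07 to 6.53 in the other 5 dosed libraries, and its mitosis score 4.79, against 6.22 to 6.42 and 5.90 to 6.21. In the other 5 dosed libraries both scores lay below every vehicle library. Scores of the remaining cell cycle lists overlapped with vehicle in those 5 libraries. For DNA replication and S phase they ran from 5.77 to 6.17, against 6.14 to 6.31 in vehicle. E2F factors and cell cycle entry gave 5.09 to 5.50 against 5.43 to 5.50, and homologous recombination 4.96 to 5.34 against 5.31 to 5.46. In bulk tumours fewer cycling cells and less of such RNA per cell cannot be told apart.

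**Figure D4:**
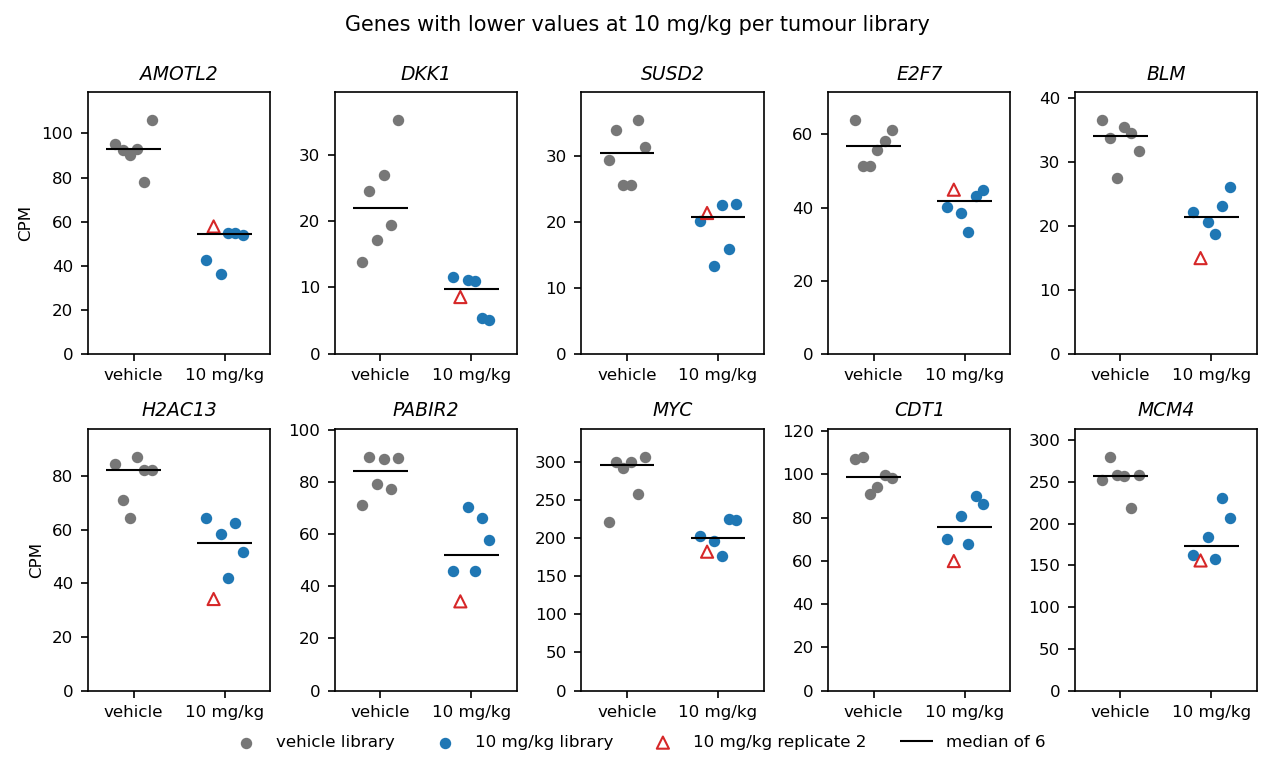
CPM (vertical axes, from 0) of the 7 genes called lower with all libraries, MYC, called lower without 10 mg/kg replicate 2 only, and CDT1 and MCM4, which did not pass, in the 6 vehicle libraries (grey) and the 6 libraries at 10 mg/kg (blue, with replicate 2 as a red open triangle); bars are medians of 6. The dosed points of the 7 called genes lie below every vehicle point, except for H2AC13. There 10 mg/kg replicate 1 and vehicle replicate 3 are drawn level at 64.4 CPM. The dosed points of MYC and MCM4 overlap with vehicle.

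Called genes outside the lists numbered 23 higher and 2 lower, and 51 and 9 without replicate 2. FGFBP1, a secreted carrier of fibroblast growth factors, ran at 2.03, 2.92 and 5.07 CPM in vehicle and 7.47 to 21.5 CPM in 5 dosed libraries. It had 0 reads in replicate 2, which allows up to 6.42 CPM there (3 counts, counting error only). It rose 3.54-fold (adjusted p = 0.0204 by edgeR) and 3.8-fold without replicate 2 (adjusted p = 0.00193), and its first call ended without vehicle replicate 4, 5 or 6 or 10 mg/kg replicate 3 (adjusted p up to 0.0904). LBH, a transcription cofactor, rose 2.44-fold with no overlap, from 9.35 to 15.8 CPM to 19.3 to 42.3 CPM (adjusted p = 0.00054), or 2.5-fold without replicate 2 (adjusted p = 5.6e-05). LONRF2, a RING finger protein, read 49.2 CPM in replicate 2 and 8.02 to 14.2 CPM in the other 5, against 3.43 to 7.32 CPM. It rose 2.97-fold with that library and 2.45-fold without it (adjusted p = 0.0194 and 0.00312), and the first call was lost without vehicle replicate 1, 2 or 5 (adjusted p up to 0.0706). SYNE3, a nesprin of the nuclear envelope, rose 2.18-fold (adjusted p = 0.00919), or 2.11-fold without replicate 2 (adjusted p = 0.00502).

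KRT6B, a keratin of stressed epithelium, was the 1 called gene of 16 in the list of basal keratins and laminin-332, at 31.4 to 60.9 CPM in vehicle and 67 to 124 CPM at 10 mg/kg (2.39-fold, adjusted p = 0.0127 by edgeR). Without replicate 2 it rose 2.3-fold (adjusted p = 0.0424). The 7 keratinocyte markers summed to 12.4 to 33.2 CPM in vehicle, 212 CPM in replicate 2 and 17.9 to 63.4 CPM in the other 5. The 2 of them high enough to be tested had a median log2 fold change of 2.04, or 1.36 without replicate 2. Of these 0 passed by edgeR in either fit, or by DESeq2 with all libraries. At an unadjusted p under 0.05 by edgeR there were 2 and 1, with and without replicate 2. The part of keratinocyte markers in the keratin rise was not tested. In the basal keratin and laminin list DESeq2 called 3 genes and voom with sample weights 4, both from all libraries. Its median was 0.40, or 0.33 without replicate 2, and KRT5, a basal keratin, LAMB3 and LAMA3, which encode laminin chains, stood at 1.55-fold, 1.3-fold and 1.44-fold (adjusted p = 0.203, 0.203 and 0.118).

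The lower genes outside the lists were SUSD2, a membrane protein, and PABIR2. SUSD2 ran at 25.6, 30.5 and 35.5 CPM in vehicle and 13.4, 20.8 and 22.8 CPM at 10 mg/kg, with no overlap, and fell to 0.631 (adjusted p = 0.0339 by edgeR), or 0.627 without replicate 2 (adjusted p = 0.021). PABIR2 fell to 0.674 (adjusted p = 0.0301), or 0.697 without replicate 2 (adjusted p = 0.0134), with 71 to 89.5 CPM in vehicle and 34.2 to 70.5 CPM at 10 mg/kg. With replicate 2 kept, both calls ended without any of 7 libraries (adjusted p up to 0.131 and 0.107). Among the genes lower only without replicate 2 were ALDH1A3, a retinaldehyde dehydrogenase (0.685, adjusted p = 0.0235), NR2F1, an orphan nuclear receptor (0.685, 0.0132), MAD2L1, a spindle checkpoint protein (0.672, 0.0429), HELLS, a chromatin remodeller (0.696, 0.0346), and ABTB3 (0.684, 0.0486). With all libraries their adjusted p-values were 0.0624, 0.0681, 0.0656, 0.0681 and 0.246.

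As given above, DNA replication and S phase, G2 and mitosis and the cell type marker lists had no call by edgeR in either fit. The other lists with no call in either fit were the chaperones of the unfolded protein response (16 genes, median log2 fold change -0.02 with all libraries), NRF2 targets (16, 0.06), p53 targets (20, -0.09), interferon response and antigen presentation (29, 0.03), hypoxia and glycolysis (24, 0.05), cytoplasmic ribosomal proteins (42, -0.17) and the nuclear-encoded respiratory chain (28, -0.06). At an unadjusted p under 0.05 they held 1, 2, 0, 1, 3, 1 and 1 genes in that order, and 2, 5, 0, 1, 3, 1 and 1 without replicate 2. With all libraries DESeq2 called 0 in each, and voom with sample weights called 1 NRF2 target, 1 hypoxia gene and 0 in the others. Without replicate 2 the medians were 0.03, 0.09, -0.11, 0.08, 0.09, -0.09 and -0.03 in the same order. HMOX1, the NRF2 target heme oxygenase, stood at 1.51-fold (adjusted p = 0.163 by edgeR). The hypoxia score was 5.97 in 10 mg/kg replicate 5, where the rest of its group lay at 6.76 to 7.05 and vehicle at 6.53 to 6.93.

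The 121 genes called without replicate 2 had the same sign in both fits. Of the 105 higher, 72 had a smaller fold with replicate 2 kept, as did 7 of the 16 lower. Of the 46 genes gained on the higher side, replicate 2 was the lowest library of its group for 36. All these genes were selected for passing without replicate 2, and both fits share their other libraries. The selection itself favours such counts, so they say little about that library, and shares over all genes were not taken. Leaving out each of the 12 libraries in turn, 30 of the 66 genes were called each time, among them INSIG1, HMGCS1, ACAT2, MVD, FDPS, SQLE, LSS, MSMO1, DHCR7, ACSS2, LPIN1, LIPG, TRIB3, JUN, JUND, DUSP4, TSC22D3, LBH, SYNE3, KRT6B, AMOTL2 and DKK1. The number called ran from 31 without vehicle replicate 5 to 121 without 10 mg/kg replicate 2, with 42 and 40 without vehicle replicates 1 and 2.

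**Figure D5:**
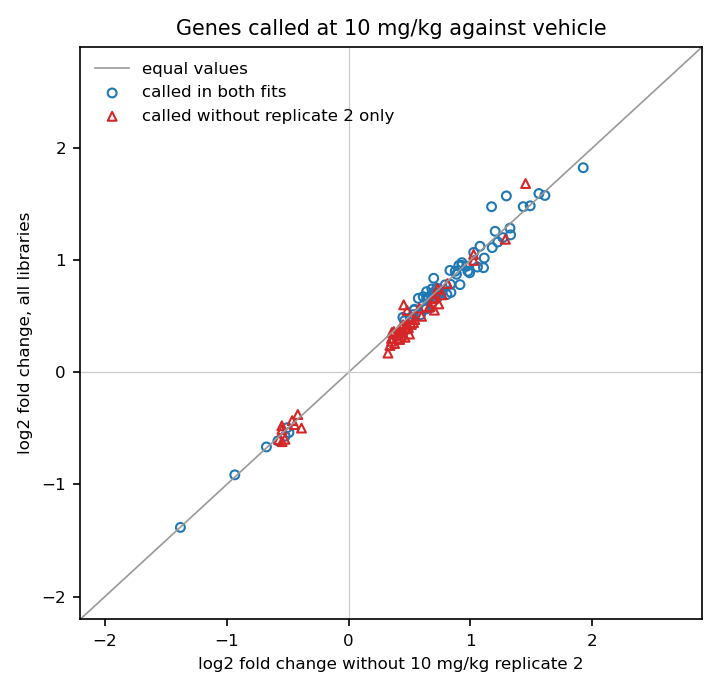
Log2 fold change at 10 mg/kg against vehicle from all libraries (vertical axis) against that without 10 mg/kg replicate 2 (horizontal axis) for the 121 genes called without it; circles were called in both fits (66), triangles without replicate 2 only (55), and the line marks equal values. All points have the same sign in both fits, and most higher genes lie below the line, 72 of 105. The genes were chosen by the fit on the horizontal axis, which favours that side of the line.

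Tested directly against 30 mg/kg, 0 of 14074 genes differed at 10 mg/kg by edgeR (0% called), with 496 at an unadjusted p under 0.05. DESeq2 also called 0, with 735 at an unadjusted p under 0.05, and without 10 mg/kg replicate 2 edgeR called 0 with 458. A p that misses the threshold does not show that the doses acted alike. AMOTL2, the gene with the clearest fall at 10 mg/kg, had an unadjusted p of 0.0499 between the doses by edgeR, and INSIG1 one of 0.329. The adjusted p was 0.969 for each of them.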

How the data were processed

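Total RNA from each tumour was made into libraries from 5 ng with a stranded pico-input kit, per the labels' protocols. The submitters' processing notes name STAR 2.4.2a and the builds hg19 and mm10. Not given in the sources used here are the annotation, the quantifier and the way reads were split between human and mouse. The files deposited by the authors hold expected counts and TPM per library for 25343 human genes, per the file headers. Symbols were matched by gene ID (25220) or transcript accession (26), and 97 genes had none. Expected counts were rounded, filtered with filterByExpr, scaled by TMM and fitted over all 18 libraries with the robust quasi-likelihood test of edgeR 4.0.16 (R 4.3.3), with Benjamini-Hochberg adjustment over all genes. The deposited TPM was used only to look at levels per length. Total counts set the precision (433989 in the shallowest library).

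For PTDSS1 and PTDSS2 an exact permutation test over 924 arrangements was added. The comparison, whose members are set by sample titles, and the gene lists were chosen with earlier results of these data known. Named genes are PTDSS1, PTDSS2, list members called in either fit, up to 3 further members per list by smallest p, and, of called genes, the 15 with the largest rises and the 10 with the largest falls at a mean of at least 5 CPM, small RNA genes left out; not every gene so chosen is named. Some genes of the cholesterol lists are counted but not reported singly here. Alternatives used DESeq2 1.42.0 and limma 3.58.1, other scalings and filters, the groups alone, a replicate block and each library left out; those that combine another choice with the omission of 10 mg/kg replicate 2, or leave out replicate 4 with it, were added after seeing the data.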

Additional observations from a re-analysis of the deposited data

Results flagged for a closer look

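In 43 of 258 sets of 6 values looked at (text genes, list scores and totals in each group), 1 library lay far from the rest, with a gap to its nearest neighbour that was large for the range (Dixon's test). Chance alone gives about 1 in 20 such sets. Of the 43, 30 fell on 10 mg/kg replicate 2, whose total count of 433989 compared with 3435435 to 4749533 for its 5 fellow libraries.

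Only genes of the text were looked at singly, many of them from lipid lists, and no share over all genes was taken. Genes flagged as low in that library were mostly lipid genes. In CPM, with the range of the rest of the group after each, they were ACAT2 (10.7, 42 to 55.6), FDFT1 (116, 288 to 334), NSDHL (4.28, 21.9 to 28.7), EBP (17.1, 44.3 to 57.9), DHCR7 (27.8, 92.9 to 106), ACLY (126, 344 to 423), ACACA (169, 431 to 543), SCD (622, 1866 to 2283) and ACSL3 (85.6, 141 to 168). GARS1 (111, 169.6 to 195), KLF2 (68.4, 113 to 132) and ALDH1A3 (25.7, 54.9 to 71.4) were also low there. Genes high in it were TRIB3 (64.2, 32.5 to 38.3), CEBPG (92, 64 to 71.6), JUN (400.0, 199 to 264), EGR3 (49.2, 8.79 to 14.8) and LONRF2 (49.2, 8.02 to 14.2).

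List scores (mean log2 CPM) of that library were low for the mevalonate pathway (5.54, 6.01 to 6.26), sterol ring synthesis (5.18, 5.99 to 6.17), cholesterol uptake and efflux (4.47, 5.24 to 5.46) and fatty acid synthesis (5.61, 6.18 to 6.35). They were also low for ATF4 amino acid genes (5.45, 5.88 to 6.03), tRNA synthetases (6.33, 6.97 to 7.23), G2 and mitosis (4.79, 5.90 to 6.21), histones (4.48, 6.07 to 6.53), lysosome and autophagy (5.07, 5.51 to 5.59) and the respiratory chain (5.42, 6.17 to 6.28). Scores of lipases and lipid droplets (5.14, 4.77 to 4.88) and of leukocyte markers (4.19, 1.99 to 2.54) were high.

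Vehicle replicate 3 was high for PMVK (29.4 CPM, 12.5 to 18.2), JUN (174, 124 to 142), KRT6B (60.9, 31.4 to 35.8), PMAIP1 (99.7, 81.1 to 87.5) and SGK1 (5.41, 2.7 to 3.59). Its scores were high for chaperones (7.23, 7.01 to 7.09), immediate early genes (5.78, 5.50 to 5.57), hypoxia and glycolysis (6.93, 6.53 to 6.63) and epithelial markers (8.12, 7.74 to 7.87). The remaining cases were MSMO1 in vehicle replicate 4 (34.3 CPM, 22.3 to 26.4), PTDSS2 in 10 mg/kg replicate 3 (13.9 CPM, 7.11 to 9.57), the NF-kB score of 10 mg/kg replicate 4 (5.10, 4.87 to 4.94) and the hypoxia score of 10 mg/kg replicate 5 (5.97, 6.76 to 7.05).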

How the results depend on the processing

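The 66 genes called at 10 mg/kg against vehicle became 32 with no filter on low counts, 36 from the groups compared alone, 158 with DESeq2 and 235 with voom sample weights, and ran from 31 to 121 with 1 library left out in turn. Together with the omission of 10 mg/kg replicate 2, DESeq2 gave 235, library totals alone 123 and DESeq2 size factors 119. Leaving out 10 mg/kg replicates 2 and 4 together gave 83. All 66 were among the calls of DESeq2, and all 32 and all 36 of the smaller sets were among the 66. A fit with a replicate block called 24 genes (63 without replicate 2). Correlations of same-numbered deviations ran from -0.222 to 0.137 between these groups. They ran from -0.181 to 0.224 between vehicle and 30 mg/kg, and from -0.281 to 0.0106 between the doses. Such values over all genes cannot settle whether the replicate numbers pair the samples. The comparison with 30 mg/kg gave 0 calls under each setting tried.

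PTDSS1 alone stayed lower, from -0.28 to -0.22 with 1 library left out. The difference of PTDSS2 alone ran from -0.03 (without vehicle replicate 1, p = 0.87 by exact permutation) to 0.21, and its log2 fold change in the edgeR fit from -0.02 (without 10 mg/kg replicate 3) to 0.25 (without vehicle replicate 2). Of the 44 genes named in the report and called with all libraries, none lost the call with DESeq2, sample weights or DESeq2 size factors, 1 did with library totals alone, 20 without a filter, 20 from the groups alone and 28 with the block. None of them changed direction under these settings. The cause of these shifts was not tested. Depth limits 10 mg/kg replicate 2, where genes below a few CPM rest on 1 or 2 reads.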
